A study of Mus musculus with 24 samples.

Results

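The costimulatory and checkpoint molecules of bone marrow-derived macrophages (BMDMs) were followed through 8 groups of RNA-seq libraries. The set held 9 genes, *Cd86*, *Cd80*, *Icosl*, *Cd274*, *Pdcd1lg2*, *Cd40*, *Tnfsf9*, *Cd83* and *Cd200*, taken by symbol from the 17109 genes listed for both stimuli. They were chosen by function, with earlier results of these libraries known, so the p-values for them describe the size of a difference beside the spread of libraries and are not independent evidence. The BMDMs, macrophages grown from marrow in medium conditioned by L929 cells, came from 10-week-old C57BL/6 mice. The mice were either wild type (WT) or DRD5-/-, a line made with CRISPR-Cas9 that lacks the dopamine receptor D5. M1 macrophages were made by 12 h of stimulation with LPS at 100 ng/ml together with IFN-γ at 50 ng/ml. M2 macrophages were made by 12 h with IL-4 and IL-13, each at 10 ng/ml. Each was left without or treated with dopamine (DA), a catecholamine transmitter. Each stimulus thus had 4 groups (WT and DRD5-/-, each with and without DA), with 3 libraries per group and 24 in all. All groups were stimulated, and no resting BMDMs were among them. The labels do not say whether a library stands for a mouse or a culture, so p-values measure only the spread between these samples, which may be technical.

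A T cell needs a second signal beside the antigen receptor, and the antigen-presenting cell gives it through costimulatory ligands. CD80 and CD86, of the B7 family, bind CD28 to activate a T cell and CTLA-4 to restrain it, and ICOSL binds ICOS. PD-L1 (*Cd274*) and PD-L2 (*Pdcd1lg2*) bind the inhibitory receptor PD-1 and are called checkpoint ligands. CD40 receives help from T cells, 4-1BBL (*Tnfsf9*) binds 4-1BB on activated T cells, CD83 is a surface protein of mature antigen-presenting cells that holds CD86 and MHC class II at the membrane, and CD200 restrains myeloid cells through CD200R1. LPS and IFN-γ are known inducers of most of these genes in macrophages, whereas PD-L2 is a classical target of IL-4.

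The values were FPKM (fragments scaled by transcript length and by the mapped fragments of the library) as deposited, a scale per length on which levels of different genes can be set side by side. Sums of FPKM per library were 476187 to 494459 in M1 and 482310 to 503799 in M2, and the depth behind them is unknown. Libraries of the same group resembled each other closely across genes, with Pearson's r of log2(FPKM + 1) between 0.9982 and 0.9989. The 6 macrophage markers *Adgre1*, *Csf1r*, *Cd68*, *Itgam*, *Mertk* and *Fcgr1* were present in every group, and their summed FPKM was between 2450 and 3940. The listed markers of T cells, B cells and NK cells summed to at most 0.42 FPKM in any library, and *Cd3e* and *Ms4a1* were not listed in M2. *Drd5* was not listed in M1. In M2 it was at 0 in all DRD5-/- libraries, and at 0.06 and 0.03 FPKM in 1 untreated and 1 DA-treated WT library, so the genotype could not be checked on its level.

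*Cd274* and *Pdcd1lg2*, the genes of both PD-1 ligands, lie next to each other on chromosome 19 (GRCm38.p6 of RefSeq; *Cd274* from 29362107 to 29388095, *Pdcd1lg2* from 29410919 to 29472927), with 22.8 kb between them. *Cd86* (36568956 to 36666158), *Cd80* (38457430 to 38495958) and *Cd200* (45382111 to 45409060) lie on chromosome 16, *Icosl* on chromosome 10 (78069368 to 78079525), *Cd40* on chromosome 2 (165055614 to 165071654), *Tnfsf9* on chromosome 17 (57105287 to 57107758) and *Cd83* on chromosome 13 (43785112 to 43803133). The upstream windows of both PD-1 ligand genes, the 250 bases before an annotated start on the plus strand, are shown because the genes behaved very differently across stimulus and DA, as described further on. The *Cd274* window (chr19:29367188-29367437) precedes a start inside the annotated span of the gene. The *Pdcd1lg2* window (chr19:29410669-29410918) precedes the first base of the gene. Capitals mark the only match of the 5 motifs searched.
Cd274: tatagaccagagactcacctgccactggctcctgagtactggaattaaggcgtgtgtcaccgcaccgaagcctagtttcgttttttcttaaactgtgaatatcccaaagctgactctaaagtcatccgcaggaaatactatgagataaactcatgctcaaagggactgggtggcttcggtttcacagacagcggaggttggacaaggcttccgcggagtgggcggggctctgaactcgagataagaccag
Pdcd1lg2: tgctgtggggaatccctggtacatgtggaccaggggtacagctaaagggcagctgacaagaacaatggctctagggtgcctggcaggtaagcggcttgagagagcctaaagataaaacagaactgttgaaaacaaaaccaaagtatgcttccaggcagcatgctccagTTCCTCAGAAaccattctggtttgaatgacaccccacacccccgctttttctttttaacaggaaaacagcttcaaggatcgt

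The capitals in *Pdcd1lg2* spell TTCCTCAGAA, a match to the spacing of a STAT6 site (TTCNNNNGAA, both strands), 82 to 73 bases before the start. STAT6 is the transcription factor activated by IL-4 and IL-13. Of all 32851 RefSeq windows of the same length, 5.85% held this pattern. Windows were matched for 5 of the 9 genes, *Icosl*, *Cd80*, *Cd200*, *Cd274* and *Pdcd1lg2*, and the *Cd200* window held the core of a CRE (TGACG), which 17.8% of all windows held. The other 3 patterns had no match in these 5 windows, where they were found in 4.93% (NF-κB, GGNNTTTCC), 2.98% (IRF, GAAANNGAAA) and 1.55% (CRE, TGACGTCA) of all windows. A match here is a description of the letters in one window, and no binding was measured.

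Levels of the 9 molecules were ordered differently in M1 and in M2. In untreated WT M1 BMDMs *Cd274* stood first with 713 ± 22.2 FPKM (SD, n = 3), followed by *Cd40* with 172 ± 5.36 and *Cd86* with 105 ± 1.97. *Cd83* (34.9), *Cd200* (20.6), *Tnfsf9* (20.3), *Cd80* (10.0), *Icosl* (3.65) and *Pdcd1lg2* (1.67 FPKM) came after them. Of the neighbours in this order, only *Cd200* and *Tnfsf9* overlapped between libraries. In untreated WT M2 BMDMs the order was another one, with *Cd83* first at 106 ± 2.95 FPKM, *Cd274* at 34.8 ± 1.18 and *Pdcd1lg2* at 12.2 ± 0.371. *Cd86* (7.90), *Cd40* (4.86), *Tnfsf9* (4.44), *Cd200* (3.25), *Cd80* (2.16) and *Icosl* (0.69 FPKM) followed, and *Cd40* and *Tnfsf9* overlapped.

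Set side by side, 7 of the 9 genes were higher in untreated WT M1 than in untreated WT M2 BMDMs, without overlap of the libraries. The share of all genes without overlap was not taken, so this count is by itself no result about the set. The ratio of the means was 35.3 for *Cd40*, 20.5 for *Cd274*, 13.2 for *Cd86*, 6.34 for *Cd200*, 5.29 for *Icosl*, 4.63 for *Cd80* and 4.57 for *Tnfsf9*. *Pdcd1lg2* was 7.32 times and *Cd83* 3.04 times higher in M2. The M1 and M2 files list different genes, so stimulus and table cannot be told apart, and no test was made. With median-of-ratios scaling over both, which raises M1 against M2, the 7 ratios lay between 6.25 and 48.2 and those of *Pdcd1lg2* and *Cd83* were 5.36 and 2.22. The directions were the same in untreated DRD5-/- BMDMs, where *Cd40* was 37.6 times, *Cd274* 16.8 times and *Cd86* 17.4 times higher in M1 and *Pdcd1lg2* 5.72 times and *Cd83* 3.23 times higher in M2.

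**Figure D1:**
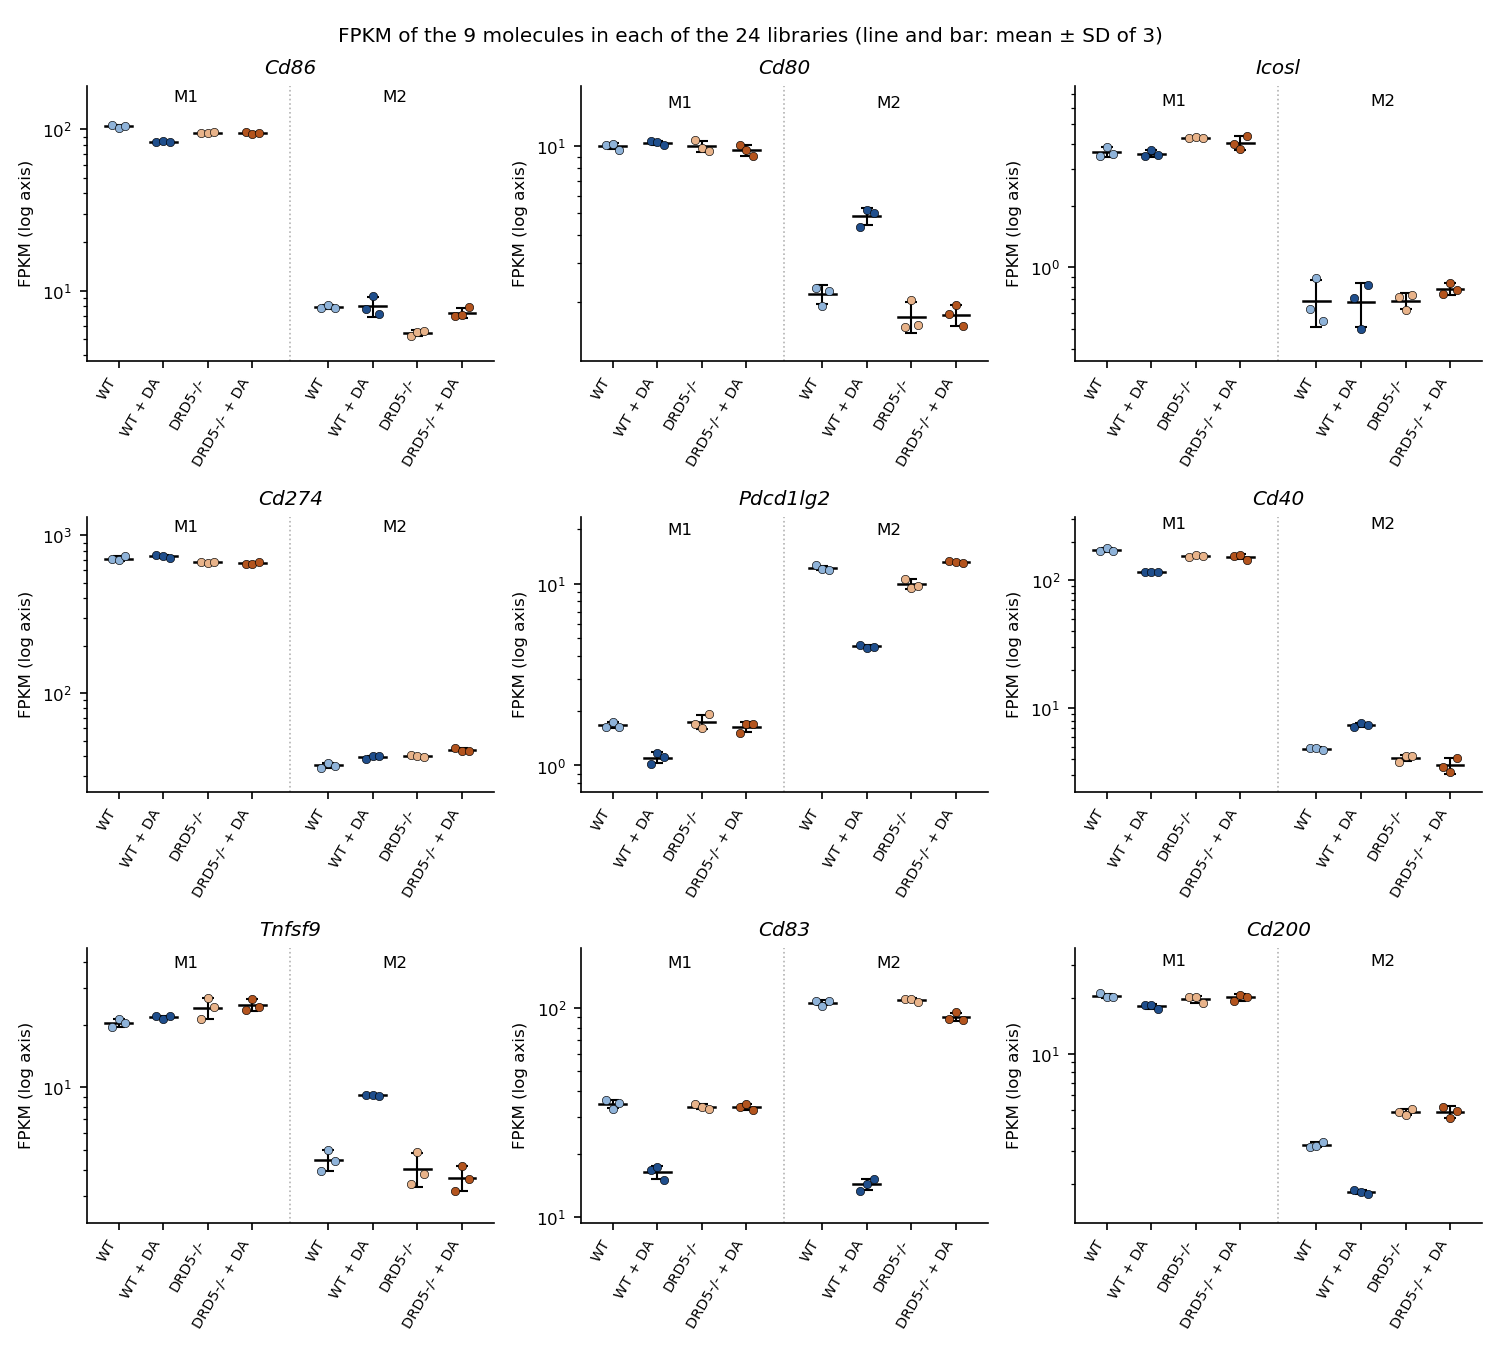
FPKM (log axis, its range set for each gene) of the 9 molecules in the 8 groups; each point is 1 of the 24 libraries, the line the mean and the bar the SD of 3 libraries. Only molecules past the threshold given below are named here. DA-treated WT libraries (dark blue) stood below untreated WT for *Cd86*, *Cd40*, *Cd83* and *Pdcd1lg2* in M1, and for *Cd83*, *Pdcd1lg2* and *Cd200* in M2. In M2 they stood above untreated WT for *Cd80*, *Cd40* and *Tnfsf9*.

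The first comparison asked which of these molecules changed with DA in WT M1 BMDMs. For this, log2(FPKM + 1) of every gene with at least 1 FPKM in at least 3 of the 12 libraries was fitted with limma, and a gene counted as changed, or past the threshold, when its Benjamini-Hochberg adjusted p was under 0.001 and its fold change (log2FC on the log2 scale) reached 1.2-fold, the cutoff the authors used. All fold changes with a log2FC are on the log2(FPKM + 1) scale, and for low genes they are smaller than the ratio of the FPKM. *Cd83*, *Cd40*, *Cd86* and *Pdcd1lg2* fell with DA, and none of the 9 rose. Of all 10040 genes tested 4.73% rose and 9.6% fell, and the median log2 fold change of the 9 molecules was −0.18 beside −0.07 over all genes. With median-of-ratios scaling the median of all genes was −0.003 and the share of rises among the changed genes went from 33% to 55.7%, and *Cd86* and *Pdcd1lg2* were no longer past the threshold. FPKM of bulk RNA cannot tell fewer cells with a transcript from less transcript per cell.

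*Cd83* was at 36.25, 33.03 and 35.26 FPKM in untreated and at 16.78, 17.43 and 15.09 FPKM in DA-treated WT M1 BMDMs. The groups were far apart, and *Cd83* fell 2.06-fold (log2FC −1.04, SE 0.0495, adjusted p = 8.28e-10 with limma). *Cd40* was at 168.81, 177.69 and 168.06 FPKM without and 115.12, 116.58 and 115.06 FPKM with DA. All DA-treated libraries were below all untreated ones, a 1.48-fold fall (log2FC −0.57, SE 0.0322, adjusted p = 5.31e-09 with limma). *Cd86*, a widely used surface marker of M1 macrophages, was at 106.00, 102.31 and 105.37 FPKM without and 82.88, 84.21 and 82.96 FPKM with DA. The fall was smaller than those of *Cd83* and *Cd40* and again without overlap (log2FC −0.32, SE 0.024, adjusted p = 7.68e-08 with limma), and it was −0.25 with median-of-ratios scaling, under 1.2-fold.

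*Pdcd1lg2* was low in M1, at 1.63, 1.74 and 1.63 FPKM in untreated and 1.02, 1.17 and 1.12 FPKM in DA-treated WT BMDMs. On the log2(FPKM + 1) scale it fell 1.27-fold (log2FC −0.34, SE 0.0651, adjusted p = 6.23e-04 with limma), and the log2FC was −0.555 with 0.1 added to FPKM in place of 1. This call was the least firm of the 4, since the adjusted p was 0.00181 with median-of-ratios scaling, 0.00118 with a replicate block, and between 0.00101 and 0.0041 when any 1 of the 6 WT libraries or the first untreated DRD5-/- library was left out. The neighbouring *Cd274*, the most abundant of the 9, was at 708.22, 693.30 and 737.02 FPKM without and 746.92, 741.00 and 722.21 FPKM with DA, and the libraries overlapped (log2FC 0.05, SE 0.0261). The other ligands were not past the threshold either. Their log2 fold changes were 0.05 for *Cd80*, −0.02 for *Icosl*, 0.09 for *Tnfsf9* and −0.18 for *Cd200*, whose adjusted p with limma was 0.00243.

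In DRD5-/- M1 BMDMs none of the 9 molecules was past the threshold with DA in the limma fit, none had an unadjusted p under 0.05, and 0% of all genes rose and 0% fell, with 569 of the 10040 genes at an unadjusted p under 0.05. The log2 fold changes of the 9 were between −0.07 (*Icosl*) and 0.05 (*Tnfsf9*). *Cd83* was at 34.84, 33.70 and 32.79 FPKM without and 33.77, 34.92 and 32.70 FPKM with DA, a log2 fold change of 0.001 (SE 0.0495). *Cd40* was at 152.65, 157.03 and 155.25 FPKM without and 154.29, 157.34 and 144.59 FPKM with DA, and the libraries overlapped. *Cd86* was at 94.92, 95.06 and 95.54 FPKM without and 95.95, 94.04 and 95.18 FPKM with DA.

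Whether the effect of DA differed between the genotypes was tested as the interaction, the log2 fold change in WT minus that in DRD5-/-. In M1 it was past the threshold for *Cd83* (−1.04, SE 0.07, adjusted p = 8.98e-08 with limma), *Cd40* (−0.54, SE 0.0456, adjusted p = 8.54e-07 with limma) and *Cd86* (−0.32, SE 0.0339, adjusted p = 6.74e-06 with limma). All 3 were lower, beside 3.2% of all genes higher and 5.18% lower. With median-of-ratios scaling the value of *Cd86* was −0.24, under 1.2-fold, and the share of higher values among all genes past the threshold went from 38.2% to 63.8%. For *Pdcd1lg2* the interaction was −0.29 with an adjusted p of 0.0292 in limma, so a difference between the genotypes was not shown at the threshold used here.

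Without DA, the loss of DRD5 left the 9 molecules of M1 BMDMs within the threshold. In the limma fit 0 of the 9 were past it, beside 0.727% of all genes higher and 0.209% lower in DRD5-/-. An unadjusted p under 0.05 was found for 5 of the 9, beside 2557 of the 10040 genes. The lowest adjusted p belonged to *Cd86*, with 95.2 ± 0.325 FPKM in DRD5-/- and 105 ± 1.97 FPKM in WT (log2FC −0.13, SE 0.024, adjusted p = 0.00287 with limma). *Cd40* was at 155 ± 2.2 FPKM in DRD5-/- and 172 ± 5.36 FPKM in WT (log2FC −0.15, SE 0.0322, adjusted p = 0.011 with limma). *Cd274* was at −0.08 (SE 0.0261). The largest values went the other way, 0.23 for *Tnfsf9* (SE 0.0659, adjusted p = 0.041 with limma) and 0.19 for *Icosl* (SE 0.0562, adjusted p = 0.051 with limma).

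**Figure D2:**
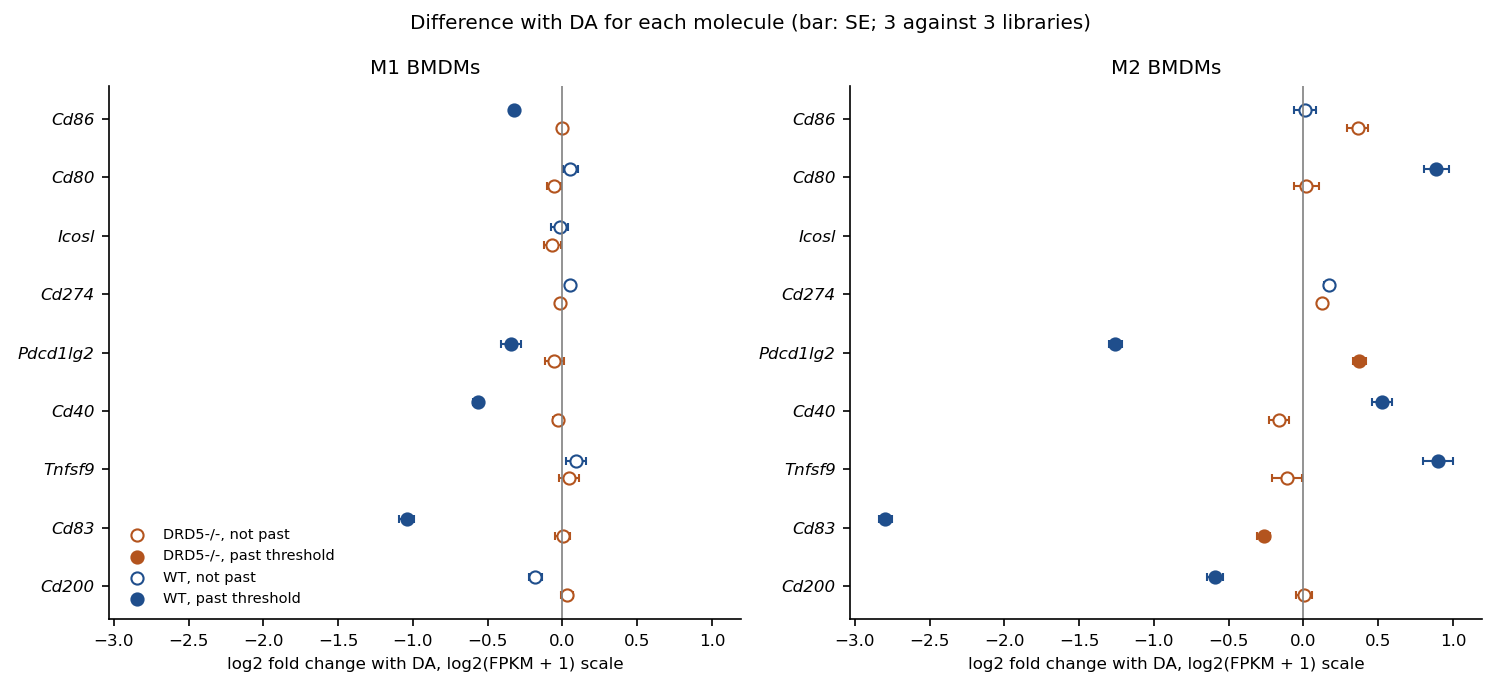
Log2 fold change with DA (x axis, log2(FPKM + 1) scale) of the 9 molecules in M1 (left) and M2 (right) BMDMs, WT in blue and DRD5-/- in orange, with the SE as bar and filled points past the threshold; *Icosl* was not tested in M2. The WT values reached −1.04 in M1 and −2.80 in M2, both for *Cd83*, and the DRD5-/- values lay between −0.27 and 0.37.

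In M2 BMDMs 8 of the 9 molecules were tested, since *Icosl* reached 1 FPKM in none of the 12 libraries (0.50 to 0.89 FPKM). *Cd80*, *Cd40* and *Tnfsf9* rose with DA in WT M2 BMDMs, *Cd83*, *Pdcd1lg2* and *Cd200* fell, and *Cd86* and *Cd274* were not past the threshold. DA changed a large part of the genes in these cells, 25.9% of the 10735 tested upward and 20.4% downward. With changes this common, the count of 6 is by itself no result about the set. The median log2 fold change of the 8 molecules was 0.09 beside 0.03 over all genes. Median-of-ratios scaling left the 6 calls as they were.

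*Cd83* showed the largest difference of the set. It was at 107.31, 102.42 and 107.71 FPKM in untreated and at 13.43, 14.50 and 15.25 FPKM in DA-treated WT M2 BMDMs. This was a 6.95-fold fall on the log2(FPKM + 1) scale (log2FC −2.80, SE 0.042, adjusted p = 1.3e-15 with limma). With DA *Cd83* no longer stood first in WT M2 BMDMs, and its DA-treated M1 and M2 libraries, 16.4 ± 1.21 and 14.4 ± 0.915 FPKM, overlapped.

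Of the checkpoint ligands, *Pdcd1lg2* was at 12.63, 12.02 and 11.96 FPKM without and 4.61, 4.45 and 4.49 FPKM with DA in WT M2 BMDMs. It fell 2.39-fold (log2FC −1.26, SE 0.0433, adjusted p = 4.56e-12 with limma), with the groups wide apart. *Cd274* was at 33.77, 36.11 and 34.62 FPKM without and 38.30, 39.78 and 39.97 FPKM with DA. These libraries did not overlap either, but the difference was under 1.2-fold (log2FC 0.17, SE 0.0315, adjusted p = 2.05e-04 with limma). *Cd200* was at 3.17, 3.21 and 3.36 FPKM without and 1.86, 1.82 and 1.76 FPKM with DA, and all DA-treated libraries were lower (log2FC −0.59, SE 0.0535, adjusted p = 1.62e-07 with limma).

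Among the costimulatory ligands and receptors, *Cd80* was at 2.32, 1.92 and 2.24 FPKM without and 4.36, 5.18 and 5.0 FPKM with DA. Every DA-treated library was above every untreated one (log2FC 0.89, SE 0.0841, adjusted p = 2.82e-07 with limma). *Tnfsf9* was at 3.96, 4.97 and 4.39 FPKM without and 9.18, 9.18 and 9.04 FPKM with DA, a 1.87-fold rise (log2FC 0.90, SE 0.1, adjusted p = 1.57e-06 with limma). *Cd40* was at 4.91, 4.94 and 4.73 FPKM without and 7.13, 7.70 and 7.47 FPKM with DA, a 1.44-fold rise (log2FC 0.53, SE 0.0673, adjusted p = 6.83e-06 with limma). Both rises were again without overlap. *Cd86*, by contrast, was at 7.80, 8.14 and 7.75 FPKM without and 7.64, 9.24 and 7.12 FPKM with DA, and the libraries overlapped (log2FC 0.01, SE 0.0725).

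In DRD5-/- M2 BMDMs DA changed 2 of the 8 molecules, 1 in each direction, beside 3.37% of all genes that rose and 0.652% that fell. With median-of-ratios scaling the share of rises among the changed genes went from 83.8% to 69.7%. *Pdcd1lg2* was at 10.63, 9.48 and 9.69 FPKM without and 13.30, 13.13 and 13.03 FPKM with DA, and it rose 1.3-fold (log2FC 0.37, SE 0.0433, adjusted p = 3.63e-05 with limma), against the direction seen in WT. *Cd83* was at 110.25, 110.31 and 107.03 FPKM without and 88.91, 95.34 and 87.81 FPKM with DA. It fell 1.2-fold (log2FC −0.27, SE 0.042, adjusted p = 3.84e-04 with limma), and the adjusted p was between 0.00137 and 0.00267 without any 1 untreated DRD5-/- library or without the first or the third DA-treated one, and 0.00108 with a replicate block. *Cd86* was at 5.23, 5.51 and 5.66 FPKM without and 6.97, 7.08 and 7.90 FPKM with DA, without overlap, but its adjusted p of 0.00209 in limma missed the threshold (log2FC 0.36, SE 0.0725).

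The interaction with genotype in M2 was past the threshold for the same 6 molecules as DA in WT, with which it shares the WT libraries, 3 in each direction, beside 22.8% of all genes higher and 20.4% lower. It was −2.53 for *Cd83* (SE 0.0594, adjusted p = 3.03e-13 with limma), −1.63 for *Pdcd1lg2* (SE 0.0612, adjusted p = 2.87e-11 with limma) and −0.60 for *Cd200* (SE 0.0756, adjusted p = 8.27e-06 with limma). For the molecules that rose it was 1.01 for *Tnfsf9* (SE 0.142, adjusted p = 2.23e-05 with limma), 0.87 for *Cd80* (SE 0.119, adjusted p = 1.72e-05 with limma) and 0.69 for *Cd40* (SE 0.0951, adjusted p = 1.93e-05 with limma). *Tnfsf9* in DRD5-/- was at 3.42, 4.87 and 3.81 FPKM without and 3.16, 4.18 and 3.62 FPKM with DA, and *Cd80* at 1.55, 2.03 and 1.58 and at 1.76, 1.93 and 1.56 FPKM, overlapping in both cases. For *Cd274* the interaction was 0.05 (SE 0.0445), so a difference between the values of 0.17 in WT and 0.13 in DRD5-/- was not shown. For *Cd86* it was −0.35 (adjusted p = 0.00749 with limma), and −0.45 (adjusted p = 2.32e-04) without the second DA-treated WT library, which held the highest *Cd86* level of its group.

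Without DA, 3 molecules of M2 BMDMs differed with the loss of DRD5, 1 higher and 2 lower, beside 1.37% of all genes higher and 4.15% lower. With median-of-ratios scaling the share of higher values among these genes went from 24.8% to 40.1%. *Cd200* was at 4.86, 4.70 and 5.04 FPKM in DRD5-/- and 3.17, 3.21 and 3.36 FPKM in WT (log2FC 0.47, SE 0.0535, adjusted p = 2.13e-05 with limma). *Cd86* was lower, at 5.23, 5.51 and 5.66 FPKM in DRD5-/- and 7.80, 8.14 and 7.75 FPKM in WT (log2FC −0.46, SE 0.0725, adjusted p = 3.45e-04 with limma). *Pdcd1lg2* was at 9.93 ± 0.612 FPKM in DRD5-/- and 12.2 ± 0.371 FPKM in WT (log2FC −0.27, SE 0.0433, adjusted p = 3.64e-04 with limma). The calls of *Cd86* and *Pdcd1lg2* were not firm. Leaving out any 1 of the 6 libraries compared gave *Cd86* an adjusted p between 0.00121 and 0.00237, and leaving out any of these but the first DRD5-/- library gave *Pdcd1lg2* one between 0.0011 and 0.00266.

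The effects of DA in WT M1 and WT M2 BMDMs were then set against each other in 1 fit over the 24 libraries. The difference, the log2 fold change in M1 minus that in M2, was past the threshold for 7 of the 9 molecules, 3 higher and 4 lower, beside 17.6% of the 11148 genes higher and 28.2% lower. *Cd40* was the molecule that moved in opposite directions, down in M1 and up in M2 (difference −1.09, SE 0.0737, adjusted p = 1.2e-11 with limma). *Cd80* (−0.84, SE 0.0994) and *Tnfsf9* (−0.81, SE 0.13) rose in M2 only, as far as the threshold goes. *Cd83* (1.76, SE 0.0685) and *Pdcd1lg2* (0.92, SE 0.0705) fell in both stimuli and further in M2, and for *Cd200* the difference was 0.41 (SE 0.0635). *Cd86* fell in M1 alone, with a difference of −0.33 (SE 0.0778, adjusted p = 6.69e-04 with limma), which was −0.26 with an adjusted p of 0.00491 after median-of-ratios scaling. Without any 1 of 9 WT libraries (6 of M1, the first and the third untreated and the second DA-treated of M2) the difference for *Cd86* was between −0.35 and −0.24 and its call was lost. *Cd274* (−0.12, adjusted p = 0.00731) and *Icosl* (−0.01) were not past the threshold in limma.

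Some of these molecules share receptors, so their ratio within a library was taken as a description that no scaling of the library can change. The ratio of *Cd80* to *Cd86* was 0.0957 ± 0.0042 in untreated and 0.125 ± 0.0024 in DA-treated WT M1 BMDMs. In WT M2 BMDMs it went from 0.274 ± 0.033 to 0.611 ± 0.079. The libraries with and without DA did not overlap in either stimulus, and *Cd86* remained the more abundant transcript in every library. In DRD5-/- BMDMs the ratio was 0.105 ± 0.0063 without and 0.101 ± 0.0056 with DA in M1, with overlapping libraries. In DRD5-/- M2 BMDMs it moved the other way from WT, from 0.315 ± 0.047 to 0.241 ± 0.039, and the libraries did not overlap (0.296, 0.368 and 0.279 without and 0.253, 0.273 and 0.197 with DA).

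The ratio of *Cd274* to *Pdcd1lg2* spanned the widest range, from 428 ± 27 in untreated WT M1 to 2.86 ± 0.17 in untreated WT M2 BMDMs. With DA it was 670 ± 54 and 8.72 ± 0.35, higher than without DA in every library of both stimuli. In DRD5-/- M1 BMDMs the libraries overlapped, with 390 ± 32 without and 410 ± 26 with DA. In DRD5-/- M2 BMDMs the ratio moved the other way, from 4.04 ± 0.2 to 3.33 ± 0.042, and the libraries did not overlap.

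**Figure D3:**
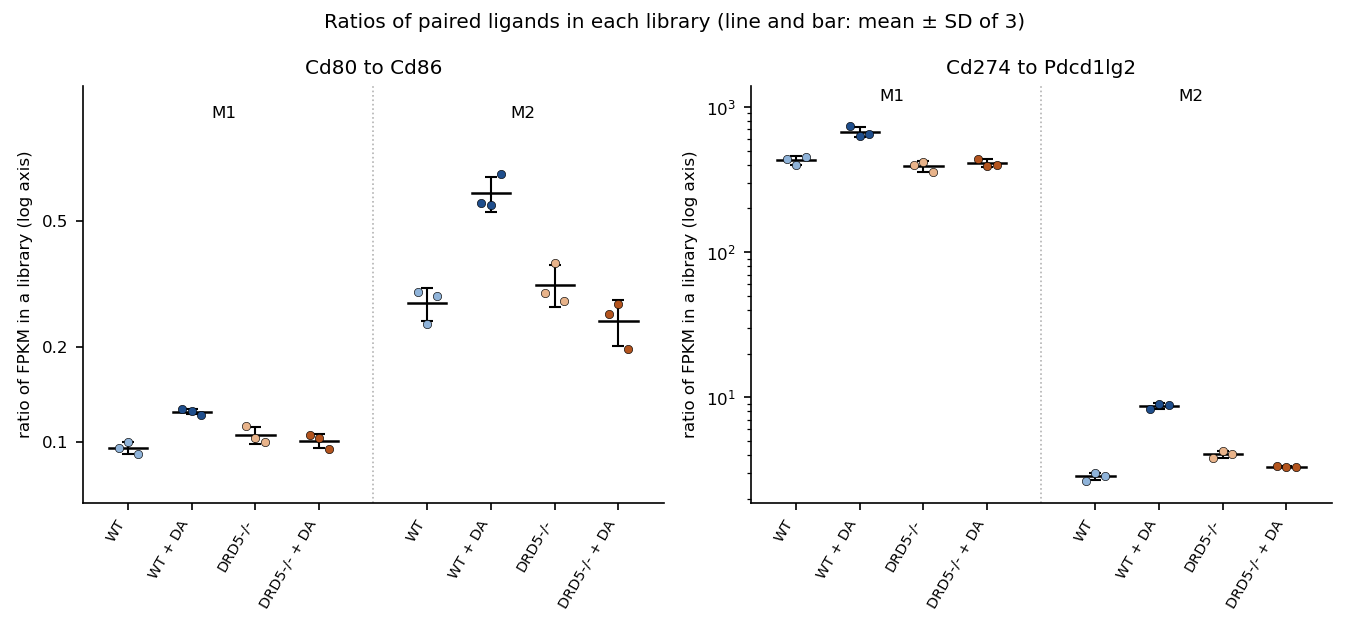
Ratio of the FPKM of *Cd80* to *Cd86* (left) and of *Cd274* to *Pdcd1lg2* (right) within each library (log axes), by group; each point is 1 library, with the mean and SD of 3 as line and bar. DA-treated WT libraries stood above untreated WT in each stimulus, at 0.125 and 0.611 on average on the left and at 670 and 8.72 on the right.

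Genes around the 9 molecules were taken from lists of their receptors, relatives and signalling partners. With DA in WT M1 BMDMs 7 of the 37 tested genes of these lists rose and 7 fell, 18.9% in each direction beside 4.73% of all genes rising and 9.6% falling. Of the B7 family and its T cell receptors 2 rose and 1 fell of 4 tested, of the TNF superfamily 1 rose and 2 fell of 6, and of the inhibitory receptors and ligands 4 rose and 1 fell of 12. None of the 5 adhesion and SLAM genes rose and 2 fell. Of the list for turnover of CD86 and PD-L1 protein only *Cmtm4* and *Cmtm6* were found, and neither passed the threshold. *March1* and *March8*, also sought under their *Marchf* symbols, were not found, so turnover of CD86 was not tested. The medians of these lists lay between −0.16 and 0.17, beside −0.07 over all genes. The largest rises were those of *Tnfsf4*, which encodes OX40L (log2FC 1.04, SE 0.0976), *Havcr2*, which encodes the checkpoint receptor TIM-3 (0.61, SE 0.0749), and *Lair1*, an inhibitory collagen receptor (0.59, SE 0.0345). The largest falls were those of the inhibitory receptor gene *Btla* (−0.61, SE 0.0788), *Tnfrsf9*, the 4-1BB receptor for the product of *Tnfsf9* (−0.46, SE 0.0486), and *Lgals9*, a ligand of TIM-3 (−0.44, SE 0.0284). *Lgals9* went from 396 ± 8.37 to 292 ± 3.92 FPKM while *Havcr2* went from 6.66 ± 0.401 to 10.7 ± 0.401 FPKM. In DRD5-/- M1 BMDMs 0 of the 37 passed the limma threshold with DA, and 3 had an unadjusted p under 0.05, beside 569 of all 10040 genes. The interaction was past it for 5 higher and 3 lower, 13.5% and 8.11% beside 3.2% and 5.18% of all genes, led by *Tnfsf4* (0.92), *Havcr2* (0.67) and *Lair1* (0.58) and by *Traf6*, an adaptor of CD40 (−0.45), *Tnfrsf9* (−0.43) and *Lgals9* (−0.41). Of these, *Tnfrsf9* alone was no longer past the threshold with median-of-ratios scaling (adjusted p = 0.00124 with limma). For DA in WT M1, this scaling took *Cd244a* out of the falls (log2FC −0.241) and brought *Cd200r4* into the rises (0.276).

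With DA in WT M2 BMDMs 6 of the 30 tested genes of the lists rose (20.0%) and 14 fell (46.7%), beside 25.9% and 20.4% of all genes. *Havcr2* rose most, from 4.27, 4.24 and 4.77 to 20.95, 21.33 and 22.32 FPKM (log2FC 2.06, SE 0.0554, adjusted p = 3.55e-13 with limma), followed by *Cd244a*, which encodes the SLAM family receptor 2B4 (1.27, SE 0.0831) and *Cd276*, which encodes the B7 relative B7-H3 (1.0, SE 0.0586). The falls were led by *Slamf7*, a SLAM family receptor (−1.62, SE 0.0323), *Traf1*, an adaptor of CD40 and other TNF receptors (−1.10, SE 0.0851), and *Cd24a*, a ligand of the inhibitory receptor Siglec-G (−1.03, SE 0.0661). Of the 8 CD40 signalling genes 5 fell and none rose (median log2 fold change −0.29, beside 0.03 over all genes, of which 20.4% fell), while *Cd40* itself rose. In the same list 1 gene of 8, *Traf6*, fell in M1. Of the inhibitory receptors and ligands 4 rose and 4 fell of 11 tested (median 0.08), of the B7 family 1 rose and 2 fell of 3 (median −0.59), of the adhesion and SLAM genes 1 rose and 2 fell of 4 (median −0.48), and of the TNF superfamily 1 fell of 2. In DRD5-/- M2 BMDMs 2 of the 30 rose, *Cmtm4*, a protein that stabilizes PD-L1 (0.27, SE 0.0462), and *Cd200r1* (0.27, SE 0.034), and none fell, beside 3.37% and 0.652% of all genes. The interaction was past the threshold for 4 higher, led by *Havcr2* (1.78), *Cd244a* (1.56) and *Cd276* (0.96), and 16 lower, led by *Slamf7* (−1.77), *Tnfrsf14*, the HVEM receptor (−1.16), and *Birc3*, a ubiquitin ligase of CD40 signalling (−1.14), where 22.8% of all genes were higher and 20.4% lower. Without DA, 5 of the 30 were lower in DRD5-/- M2 BMDMs, beside 4.15% of all genes, with *Tnfsf14*, the ligand LIGHT (−0.70), *Traf1* (−0.61) and *Lgals9* (−0.42) in the lead. In M1, 0 of the 37 passed the threshold of limma without DA, and 12 had an unadjusted p under 0.05, beside 2557 of all 10040 genes.

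**Figure D4:**
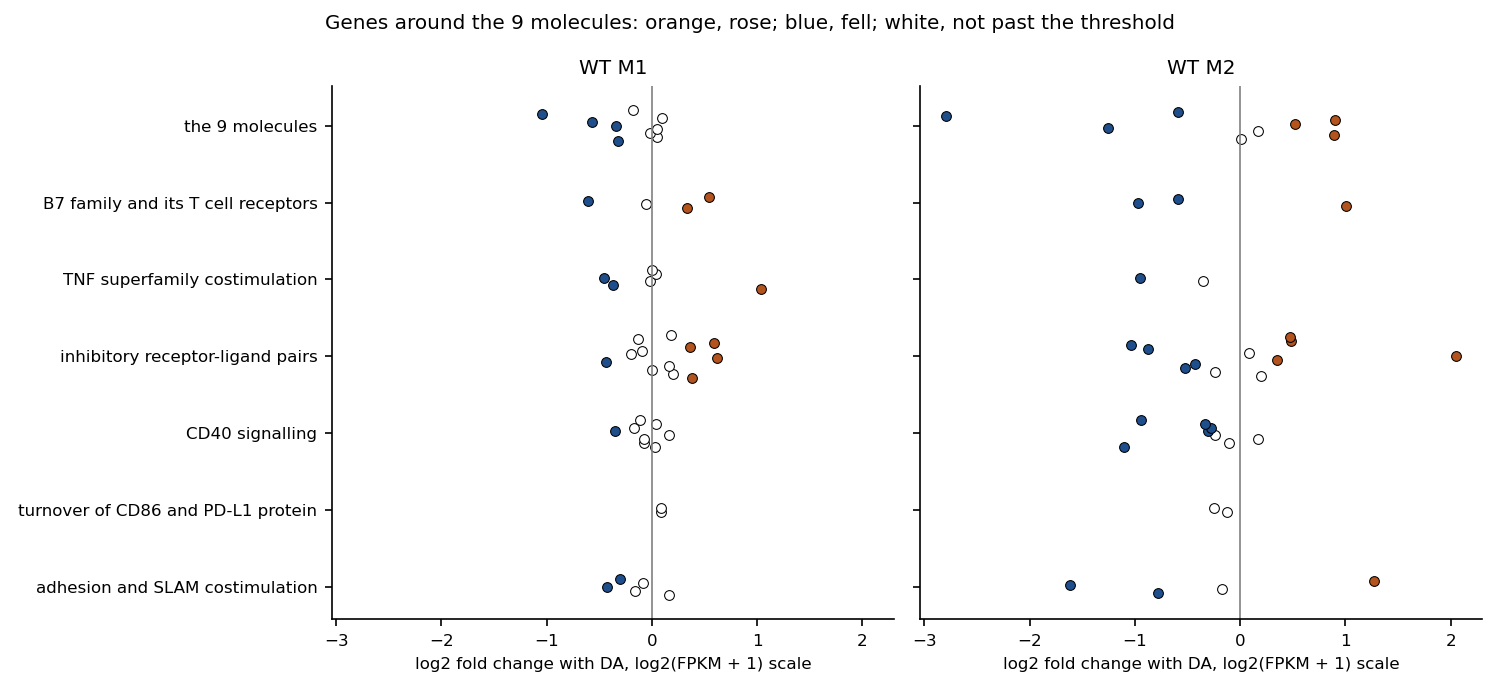
Log2 fold change with DA (x axis, log2(FPKM + 1) scale, the same for both panels) in WT M1 (left) and WT M2 (right) BMDMs for the 9 molecules and the genes of 6 lists around them; each point is 1 tested gene. In the lists 7 genes rose and 7 fell in M1, and 6 rose and 14 fell in M2.

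Between the stimuli, the response to DA in WT BMDMs was past the threshold of the difference for 16 higher and 9 lower of the 38 listed genes tested, as M1 minus M2. These were 42.1% and 23.7% of the listed genes, beside 17.6% and 28.2% of all genes. *Cd28*, the receptor of CD80 and CD86, was among them (1.14, SE 0.0619). It was at 74.08, 75.48 and 78.44 FPKM in untreated and at 50.02, 48.94 and 51.04 FPKM in DA-treated WT M2 BMDMs, and at 1.77, 1.88 and 1.89 and at 3.18, 3.06 and 3.22 FPKM in WT M1. The 2 T cell markers listed in M2 (*Cd3e* was not listed) summed to at most 0.17 FPKM in its libraries, and which cells held *Cd28* was not tested. The other leading genes were *Slamf7* (1.53) and *Cd24a* (1.39), and with lower values *Cd244a* (−1.57), *Havcr2* (−1.44) and *Pilra*, an inhibitory receptor of myeloid cells (−0.93).

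Markers of other cell types that moved with DA are given beside these results, and their part in them was not tested. The 5 dendritic cell markers summed to 38.1 to 40.3 FPKM in untreated and 21.5 to 22.4 FPKM in DA-treated WT M1 BMDMs, and to 39.8 to 43 FPKM with DA in DRD5-/-. Nearly all of this was *Ccr7* (36.9 ± 1.11 and 20.1 ± 0.533 FPKM in WT M1), a migration receptor that activated macrophages express too. *Xcr1*, a chemokine receptor of cross-presenting dendritic cells, was at 2.03, 1.48 and 1.51 FPKM in untreated and 1.03, 0.87 and 0.89 FPKM in DA-treated WT M1 BMDMs (log2FC −0.46, SE 0.093, adjusted p = 0.000935 with limma, and 0.00208 with median-of-ratios scaling). In DRD5-/- M1 BMDMs it was at 1.45 ± 0.236 FPKM without and 1.64 ± 0.183 FPKM with DA, and the interaction was not past the threshold (adjusted p = 0.00439). *Flt3* and *Zbtb46* stayed at or under 0.62 FPKM and *Cd209a* at or under 0.06 FPKM in every M1 library. The neutrophil markers summed to 32.9 to 42.4 FPKM in untreated WT, 53.3 to 64 FPKM in DA-treated WT and 14.2 to 19.7 FPKM in DRD5-/- M1 BMDMs, with *Ly6g* at or under 0.33 FPKM. With DA in WT M1, *S100a8* rose from 25.0 ± 2.48 to 41.7 ± 2.35 FPKM (log2FC 0.72, SE 0.0798). *S100a9* was at 13.6 ± 2.89 without and 14.9 ± 5.71 FPKM with DA, and the libraries overlapped. Without DA both were lower in DRD5-/- M1 than in WT M1, *S100a8* by a log2FC of −0.68. *S100a9* was at 0.54 ± 0.234 FPKM in DRD5-/- (log2FC −3.24, SE 0.202, adjusted p = 5.22e-07 with limma). In M2 BMDMs *Col1a1*, *Col1a2* and *Cdh5* summed to 40.3 to 41.7 FPKM in untreated and 48.7 to 51.3 FPKM in DA-treated WT, and to 29.9 to 32.6 FPKM in DRD5-/-. *Col1a1* and *Col1a2* made up most of these sums. Without DA they were lower in DRD5-/- than in WT (log2FC −0.35, SE 0.0474, and −0.46, SE 0.0333). *Cdh5* was higher, at 1.80 ± 0.0755 FPKM in DRD5-/- and 0.587 ± 0.0961 FPKM in WT (log2FC 0.82, SE 0.0674, adjusted p = 8.25e-07 with limma). No dendritic cell marker exceeded 0.56 FPKM in M2.

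Genes whose log2(FPKM + 1) followed a molecule most closely over the 24 libraries were sought as a description. Nearly all of this likeness reflects the M1 and M2 levels, which every library of a stimulus shares. *Cd274* was most like *Gbp5* and *Tgtp1* (Pearson's r 0.999 for each) and *Cd86* like *Oasl1* and *Usp25* (0.999 for each). *Cd40* went with *Upp1* and *Glipr2* (0.999 for each), *Icosl* with *Dtx2* (0.996) and *Gpr18* (0.995), *Cd80* with *St3gal5* and *Cndp2* (0.994 for each), *Tnfsf9* with *Smpdl3b* and *Ldha* (0.993 for each), and *Cd200* with *Acp2* (0.995) and *Sh3bp4* (0.994). *Pdcd1lg2* was most like *Tmem176b* and *Zfp609* (0.994 for each). *Cd83*, the molecule with the largest fall in both stimuli, had the least close neighbours, *Unc93b1* (0.977) and *Rilpl2* (0.973).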

How the data were processed

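RNA of 24 BMDM libraries (8 groups of 3) was sequenced on a BGISEQ-500. Per the labels and the methods, the authors filtered the reads and mapped them with HISAT2 to GRCm38.p5, while the submitters' processing notes name Bowtie2 2.2.5 and GRCm38.p6. The labels give bone as the tissue, although 1 protocol line names the colon. The authors deposited FPKM with 2 decimals per gene and library, for 18063 genes in M1 and 17786 in M2. Read counts were not analysed here, and low values were too few to recover them (15 genes in M1 and 14 in M2), so the depth of the libraries is unknown.

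The FPKM were used as deposited. Genes with at least 1 FPKM in at least 3 libraries entered limma (version 3.58.1, R 4.3.3) as log2(FPKM + 1), with an intensity trend. This scale understates the change of low genes. M1 and M2 were fitted apart (12 libraries each), and together only for the difference between stimuli. The p-values were adjusted over all genes tested (Benjamini-Hochberg). The fit was tested on simulated data. The text names the 9 molecules, *Drd5*, from the lists around them at most the 3 largest rises and falls past the threshold per comparison, and for each molecule the 2 genes most like it. Marker, adaptor and protein turnover genes are named with their lists, and some listed genes for a change of call with scaling. The molecules and lists were chosen with earlier results of these data known. Alternatives were a pseudocount of 0.1, no filter, median-of-ratios scaling, a replicate block, no intensity trend, the compared groups alone, an adjusted p of 0.05, and leaving out each library. Sequences and coordinates are from RefSeq (GRCm38.p6), and Python 3.11.15 with pandas 2.3.3 and matplotlib 3.10.9 was used otherwise.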

Additional observations from a re-analysis of the deposited data

Results flagged for a closer look

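The effect of DA on several molecules differed between the genotypes or between the stimuli by a test of the difference itself (limma interaction, adjusted p under 0.001 and at least 1.2-fold). Between the genotypes in M1, as the log2 fold change in WT minus that in DRD5-/-, the difference was −1.042 for *Cd83*, −0.537 for *Cd40* and −0.322 for *Cd86*. In M2 it was −2.53 for *Cd83*, −1.633 for *Pdcd1lg2* and −0.596 for *Cd200*, and 1.01 for *Tnfsf9*, 0.869 for *Cd80* and 0.687 for *Cd40*.

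Between the stimuli in WT, as the log2 fold change in M1 minus that in M2, the difference was 1.755 for *Cd83*, 0.916 for *Pdcd1lg2* and 0.413 for *Cd200*. It was −1.09 for *Cd40*, −0.835 for *Cd80*, −0.81 for *Tnfsf9* and −0.333 for *Cd86*. The M1 and M2 files list different genes. An offset between them on the log2 scale cancels in these values, since each effect was taken within a stimulus. Any other difference between the files cannot be told apart from the stimulus.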

How the results depend on the processing

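The counts of molecules past the threshold changed in 6 of the 9 comparisons under other settings that kept every library. With DA in WT M1 BMDMs it was 4, and 2 with median-of-ratios scaling and 3 without the filter on low values, with a replicate block and with only the compared groups. With DA in DRD5-/- M2 BMDMs it was 2, and 1 without the filter on low values, 1 without the intensity trend and 1 with a replicate block, in each case through *Cd83*, whose adjusted p was then 0.00189, 0.00175 and 0.00108, and 3 at an adjusted p of 0.05, through *Cd86*. The genotype difference in M1 was past the threshold for 3, with 2 under scaling and 4 at an adjusted p of 0.05, that in M2 for 6, with 7 at an adjusted p of 0.05, the stimulus difference for 7, with 6 under 5 of 7 settings, and untreated DRD5-/- against WT M2 for 3, with 2 under 3 of 7 settings. Leaving out 1 library gave 1 to 3 for DA in DRD5-/- M2 and 1 to 3 for untreated DRD5-/- against WT M2 BMDMs. In the other comparisons leaving out 1 library gave counts of 3 to 4 (DA in WT M1), 0 (DA in DRD5-/- M1 and untreated DRD5-/- against WT M1), 3 (genotype difference in M1), 6 (DA in WT M2), 6 to 7 (genotype difference in M2) and 6 to 7 (stimulus difference).

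Replicate numbers did not pair the libraries, since the residuals of same-numbered libraries had a mean r of −0.021 in M1 and −0.016 in M2. With the replicate block, beside *Cd83* above, the call of *Pdcd1lg2* with DA in WT M1 BMDMs was lost (adjusted p = 0.00118 with limma), and no other call on the 9 molecules changed. Over single molecules, 502 of 522 values under other settings and 998 of 1032 with 1 library left out kept their side of the threshold, and no value past the threshold changed its sign. Of the values that were not past it, 5 and 30 changed sign, all of them between −0.11 and 0.11 on the log2 scale in the fit reported. The values that lost their call were those of *Pdcd1lg2* with DA in WT M1, *Cd83* with DA in DRD5-/- M2, *Cd86* and *Pdcd1lg2* in untreated DRD5-/- against WT M2, and *Cd86* in the genotype difference of M1 and the stimulus difference, and in WT M1 with scaling. The causes were not tested. The depth is unknown, so the counting error of low genes such as *Icosl* and M1 *Pdcd1lg2* cannot be given.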
